A study of Mus musculus with 6 samples.

Results

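Ctla2a, Ctla2b, Cst3, Cst7 and Cstb encode small proteins that inhibit cysteine proteases, and they were chosen by name from the count table, as 5 of its 54532 genes. Earlier results of the same comparison, in which Ctla2a was much lower in S34F cells, were known when they were chosen. Their levels and fold changes between the groups are therefore given as a description, with no test. The libraries came from 32D cells, an established mouse line of myeloblast-like cells grown with interleukin-3. All cells had been transduced with the retroviral vector MSCV-IRES-GFP carrying human U2AF1, and both groups still had mouse U2af1. In the WT group (3 libraries) the construct held wild-type U2AF1, and in the S34F group (3 libraries) it held the S34F substitution found in myeloid malignancies. U2AF1 is a splicing factor that recognises the 3' end of introns. The labels say neither whether cells were sorted nor whether a line came from 1 clone.

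Papain-like cysteine proteases, most of them cathepsins, break down proteins in endosomes and lysosomes, and myeloid cells use them to process antigens and to activate granule proteases. They are made as proenzymes whose N-terminal propeptide blocks the active site until it is cut off. The Ctla2 proteins resemble such a propeptide without an enzyme attached and inhibit cathepsin L-like proteases. Cystatins are a separate family that plugs the active site cleft: cystatin C (Cst3) is secreted by most cells, cystatin F (Cst7) is made by leukocytes and acts inside endolysosomes, where cathepsin C is among its targets, and cystatin B (Cstb) is a stefin of the cytosol and nucleus.

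Library totals lay between 16509899 and 19129250 counts, and after TMM normalisation 1 count equalled 0.0520 to 0.0608 CPM (counts scaled to a common library size). The biological coefficient of variation between WT replicates 2 and 3 was 3.16%, while the other pairs of replicates gave 16.5% to 21.5%. Nothing in the labels says that replicates were separate cultures, so p-values cover only library-to-library spread, some of which may be technical. U2af1 was counted at 80.3 ± 19.9 CPM in S34F and 71.1 ± 23.2 CPM in WT (SD, n = 3 per group), and gene counts do not show which allele the construct carried. The myeloblast genes Ctsg, Prtn3 and Mpo were counted in every library. Elane, Kit and Cd34, which mark early myeloid cells, were at 0 to 6 counts, 0 to 3 counts and 2 to 8 counts per library.

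Ctla2a (ENSMUSG00000044258, chromosome 13, 60934155 to 60936625, minus strand, mm10) and Ctla2b (ENSMUSG00000074874, chromosome 13, 60895350 to 60897447, minus strand) lie 36708 bases apart and are close copies. Their coding sequences are shown because reads of one can match the other. GENCODE release M21 gives 414 coding bases for Ctla2a, and the 342 coding bases of Ctla2b align with bases 73 to 414 of these without a gap. Of the 342 positions 329 are identical (96.2%). The first 300 are shown, which hold all 13 that differ, in capitals.
Ctla2a: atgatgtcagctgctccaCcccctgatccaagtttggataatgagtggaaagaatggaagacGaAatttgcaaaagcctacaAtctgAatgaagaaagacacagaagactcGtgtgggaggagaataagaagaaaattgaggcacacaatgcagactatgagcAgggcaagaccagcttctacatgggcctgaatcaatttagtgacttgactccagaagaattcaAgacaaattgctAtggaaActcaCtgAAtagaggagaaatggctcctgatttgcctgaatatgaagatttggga
Ctla2b: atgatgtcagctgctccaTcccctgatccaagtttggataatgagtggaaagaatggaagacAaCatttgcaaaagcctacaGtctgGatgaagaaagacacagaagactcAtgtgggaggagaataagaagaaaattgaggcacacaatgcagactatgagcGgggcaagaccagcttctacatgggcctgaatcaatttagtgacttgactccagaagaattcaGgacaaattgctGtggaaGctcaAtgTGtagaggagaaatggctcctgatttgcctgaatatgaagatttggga
The last 6 differences lie within bases 227 to 254 as shown for Ctla2b, and the longest identical run between differences, of 62 bases, comes just before them. Of all words of 50 bases in Ctla2a transcripts 11.4% also occur in Ctla2b, and of words of 100 bases 1.11%. In Ctla2b the shares found in Ctla2a are 14.8% and 1.47%. The read length is not given in the sources used here. No word of either length in Cst3, Cst7 or Cstb occurs in another annotated transcript.

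The similarity reaches into the promoters. The windows from 250 bases before to 50 bases after the start site (RefSeq, GRCm38.p6) are shown because both hold the same motif: chr13:60936576-60936875 for Ctla2a and chr13:60897398-60897697 for Ctla2b, both on the minus strand. The AP-1 site TGACTCA is in capitals.
Ctla2a: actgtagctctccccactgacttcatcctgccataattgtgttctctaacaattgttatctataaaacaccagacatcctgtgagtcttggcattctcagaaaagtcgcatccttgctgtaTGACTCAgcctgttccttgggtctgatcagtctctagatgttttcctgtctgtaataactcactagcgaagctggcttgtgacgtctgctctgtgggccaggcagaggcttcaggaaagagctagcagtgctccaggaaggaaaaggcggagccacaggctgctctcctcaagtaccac
Ctla2b: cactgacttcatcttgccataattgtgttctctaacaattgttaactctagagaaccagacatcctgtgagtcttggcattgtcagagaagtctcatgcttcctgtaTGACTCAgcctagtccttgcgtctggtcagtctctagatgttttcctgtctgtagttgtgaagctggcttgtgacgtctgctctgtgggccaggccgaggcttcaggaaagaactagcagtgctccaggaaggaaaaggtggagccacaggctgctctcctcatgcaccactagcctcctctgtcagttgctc
Of the paired positions of both windows 91.7% are identical (255 of 278, with all gaps left out), or 89.2% of 286 with the 8 gap positions inside the alignment counted. TGACTCA, searched on both strands, begins 129 bases before the start site in Ctla2a and 143 bases before it in Ctla2b, and 5.20% of all 32851 windows hold it. RefSeq gives a further start site for Ctla2a, with the same match 188 bases before it. It overlaps no match of the other motifs searched. The STAT motif TTCNNNGAA occurs in the Ctla2a window (8.30% of all windows) and not in that of Ctla2b, and the same holds for TATAAA (13.6% of all windows). The motifs TGACGTCA (1.79% of windows), CACGTG (7.15%), CCGGAA (14.9%) and GGGCGG (35.7%) occur in neither. Windows were found for 4 of the 5 genes. Those of Cst3 and Cst7 hold no TGACTCA, and that of Cst3 holds GGGCGG at 2 places and CCGGAA at 1. The Cst3 window lies around a RefSeq start site at 148875512, which differs from the GENCODE start at 148875692. A match is a description of the letters and not a bound site.

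Ctla2a, the more abundant of the pair, stood at 59.0, 47.2 and 50.7 CPM in WT replicates 1 to 3 and at 14.4, 16.3 and 11.9 CPM in S34F replicates 1 to 3. Every S34F library was below every WT library, and the lowest WT value was far above the highest S34F value. The means were 52.3 ± 6.06 CPM in WT and 14.2 ± 2.20 CPM in S34F (SD, n = 3 per group), a fitted level 3.68-fold lower in S34F (log2 fold change -1.88 ± 0.16, SE). The variation among replicates was moderate, with a coefficient of variation of 11.6% in WT and 15.5% in S34F. The fold change of Ctla2a lay between -1.99 and -1.77 on the log2 scale under all 17 alternatives, each library left out included.

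Ctla2b was scarce, at 36, 39 and 36 counts in WT replicates 1 to 3 and 17, 20 and 14 counts in S34F replicates 1 to 3. This is 2.19, 2.30 and 1.95 CPM in WT and 0.959, 1.04 and 0.836 CPM in S34F, so the groups did not overlap and S34F was lower, as for Ctla2a. The log2 fold change was -1.17 ± 0.30 as SE over 3 libraries per group, a smaller difference than that of Ctla2a with a larger standard error. Ctla2b made up 3.58%, 4.64% and 3.70% of the counts of the pair in WT replicates 1 to 3. In S34F replicates 1 to 3 it made up 6.25%, 6.01% and 6.57%, each above every WT share. The 95% Wilson intervals of single libraries, which cover counting error only, still overlapped: the widest reached from 3.96% to 10.7% (S34F replicate 3), and that of WT replicate 2 from 3.41% to 6.28%.

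Counts of the pair also depend on longer gene models at the locus. The model Gm49391 covers 60.1% of the exon bases of Ctla2b and 16.3% of those of Ctla2a on the same strand, and Gm49392 covers 22.6% of those of Ctla2b. In these libraries Gm49391 was listed at 0 and Gm49392 at 3 counts in all. Only 539 of the 1723 exon bases of Ctla2b belong to no other gene, against 1765 of 2108 in Ctla2a. How reads over shared bases were assigned is not given in the sources used here, so the level of Ctla2b may be too low and its ratio to Ctla2a is uncertain. With the counts of both genes summed the level was 54.4 ± 6.05 CPM in WT and 15.1 ± 2.31 CPM in S34F, with a log2 fold change of -1.85.

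**Figure D1:**
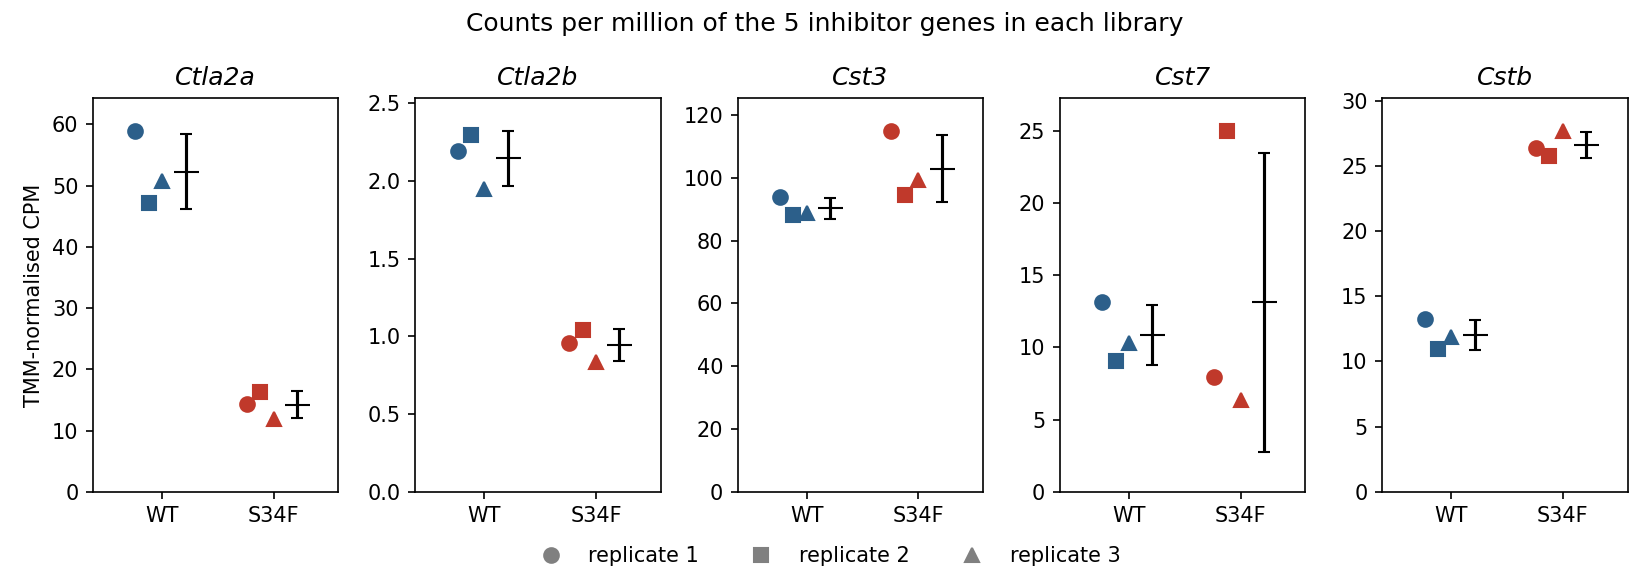
TMM-normalised CPM (linear axes that start at 0) of the 5 inhibitor genes in each library, with symbols for the replicate number, WT in blue and S34F in red, and the mean with its SD in black. Ctla2a and Ctla2b are lower in every S34F library, Cstb and Cst3 are higher in every S34F library, and Cst7 is high in S34F replicate 2 alone, at 25.0 CPM.

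The cystatins did not share this direction. Cstb, the stefin (ENSMUSG00000005054, chromosome 10, 78425669 to 78427622, plus strand), stood at 13.3, 10.96 and 11.9 CPM in WT replicates 1 to 3 and at 26.4, 25.7 and 27.7 CPM in S34F replicates 1 to 3. All S34F libraries were above all WT libraries, and the S34F values were the most even of any member, with a coefficient of variation of 3.76%. The means of Cstb were 12.04 ± 1.16 CPM in WT and 26.6 ± 1.002 CPM in S34F (SD, n = 3 per group), a fitted level 2.21-fold higher in S34F (log2 fold change 1.14 ± 0.14, SE). The fold change stayed between 1.08 and 1.22 under 16 alternatives.

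Cst3, the secreted cystatin C (ENSMUSG00000027447, chromosome 2, 148871722 to 148875692, minus strand), was the most abundant member. It stood at 94.0, 88.1 and 88.8 CPM in WT replicates 1 to 3 and at 115, 94.5 and 99.3 CPM in S34F replicates 1 to 3. The groups touched without overlapping, since S34F replicate 2 lay just above WT replicate 1. The log2 fold change of Cst3 was 0.19 ± 0.11 (SE, n = 3 per group). It was 0.04 after removal of each library's trend with GC content, so the value depends on that correction.

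Cst7, cystatin F (ENSMUSG00000068129, chromosome 2, 150570415 to 150578944, plus strand), stood at 13.1, 9.07 and 10.3 CPM in WT replicates 1 to 3 and at 7.96, 25.0 and 6.39 CPM in S34F replicates 1 to 3. S34F replicate 2 was the highest of all 6 libraries and the other S34F libraries were the lowest. The coefficient of variation in S34F was 78.7%, against 19.2% in WT. The fitted log2 fold change was 0.28 ± 0.46 (SE). It went to -0.59 without S34F replicate 2, and the difference of the group medians of log2 CPM was -0.38. No direction can be given for Cst7.

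By the edgeR threshold used for all genes (adjusted p under 0.05) 1 of the 5 members was higher, Cstb, and 1 was lower, Ctla2a, where 1.58% and 0.595% of the 13444 tested genes were. In 4 of the 5 the groups did not overlap, as in 27.1% of all genes tested. The members were chosen with this comparison known, so nothing is read from these counts. The calls under the alternatives are a description too, since Ctla2a was known to be lower in this comparison when it was chosen. Ctla2a stayed past the threshold under every alternative with a test. Cstb did not without S34F replicate 1, S34F replicate 3, WT replicate 2 or WT replicate 3, nor with WT replicates 2 and 3 summed into 1 library.

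Levels of different genes were compared as CPM per kilobase of exon. In WT the order was Cst3 at 71.3 ± 2.57, Ctla2a at 24.8 ± 2.88, Cstb at 20.0 ± 1.92, Cst7 at 11 ± 2.11 and Ctla2b at 1.24 ± 0.104 (SD, n = 3). Ctla2a and Cstb were neighbours in this order whose libraries ranged from 22.4 to 28.0 and from 18.2 to 22.0, so they were barely apart. In S34F the order was Cst3 at 81.3 ± 8.50, Cstb at 44.1 ± 1.66, Cst7 at 13.3 ± 10.5, Ctla2a at 6.73 ± 1.05 and Ctla2b at 0.549 ± 0.0596 (SD, n = 3). Cst7, from 6.48 to 25.4, and Ctla2a, from 5.64 to 7.72, overlapped and had no order. Ctla2a thus moved from next to Cst3 in WT to below Cstb in S34F. Per kilobase of the longest protein-coding transcript Ctla2a stood at 38.1 in WT and 10.3 in S34F. Per kilobase of exon that no other gene covers Ctla2b stood at 3.98 in WT and 1.75 in S34F, which left it the lowest of the 5.

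**Figure D2:**
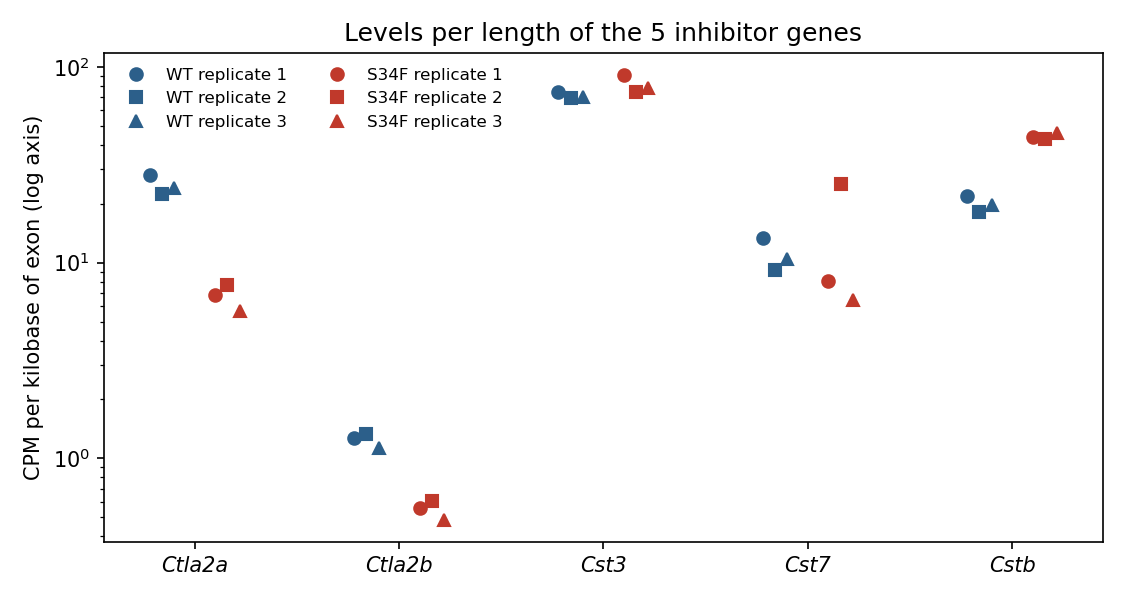
CPM per kilobase of exon (log axis) of the 5 genes, 1 point per library, WT in blue and S34F in red. Cst3 is at the top in both groups, Ctla2a and Cstb lie close together in WT and far apart in S34F, and Ctla2b is at the bottom at 1.33 or less.

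The cysteine cathepsins are the enzymes these inhibitors act on, and their fold changes had both signs. Of the 11 cysteine cathepsin and legumain genes 7 could be tested, of which 1 rose, 0 fell and 6 did not pass (edgeR adjusted p under 0.05, against 2.18% changed of all genes tested). By unadjusted p 5 genes were under 0.05, of which 4 had positive values, against 22.0% of all genes tested. DESeq2 called 4 and limma-voom 1, against 10.0% and 2.01% of all genes these tools tested. The log2 fold change was positive in 4 of the 7 genes, as in 50.1% of all genes tested. Its median was 0.46, against 0.00052 over all genes tested. In 4 of them all S34F libraries were above all WT libraries and in 1 below, where the shares over all genes were 14.0% and 13.1%.

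Ctsz, cathepsin Z, a carboxypeptidase of lysosomes, was the gene that rose. It stood at 300, 178 and 186 CPM in WT replicates 1 to 3 and at 433, 471 and 450 CPM in S34F replicates 1 to 3, with no overlap and a high WT replicate 1. The rise was 2.04-fold (1.03 ± 0.20 on the log2 scale, SE, edgeR adjusted p = 0.0408). The adjusted p was between 0.0700 and 0.173 without any 1 library other than WT replicate 1, 0.161 with WT replicates 2 and 3 summed and 0.0623 with the GC trend removed.

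Ctsb, cathepsin B, the major endopeptidase that also trims peptides, had a log2 fold change of 0.46 ± 0.12 (edgeR adjusted p = 0.0773), from 215 ± 15.8 to 297 ± 26.4 CPM (SD, n = 3 per group). Ctsc, cathepsin C, which activates granule serine proteases and is a target of cystatin F, stood at 316 ± 45.4 CPM in WT and 282 ± 12.3 CPM in S34F (edgeR adjusted p = 0.489). Ctsl, cathepsin L, the enzyme family that Ctla2 proteins inhibit, was rare, at 0.851, 0.353 and 0.487 CPM in WT replicates 1 to 3 and 1.75, 2.86 and 0.956 CPM in S34F replicates 1 to 3. Its groups did not overlap and its log2 fold change of 1.72 ± 0.51 did not pass (edgeR adjusted p = 0.109). The gene was thus far scarcer than Ctla2a in both groups. Ctss, cathepsin S, which trims the invariant chain of MHC class II, had a log2 fold change of 1.07 ± 0.25 that did not pass either (edgeR adjusted p = 0.0678). Ctsw, cathepsin W, a cathepsin of cytotoxic lymphocytes, was the lowest of the 7 by fold change and scarce, at 1.28, 1.41 and 1.24 CPM in WT replicates 1 to 3 and 0.564, 0.364 and 0.956 CPM in S34F replicates 1 to 3. All its S34F libraries were below all WT libraries, at a log2 fold change of -1.07 ± 0.41 that did not pass (edgeR adjusted p = 0.180). Ctso, cathepsin O, had -0.29 ± 0.32 (edgeR adjusted p = 0.633).

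The locus of the Ctla2 genes on chromosome 13 neighbours genes of the placenta. The nearest protein-coding genes of Ctla2a are Tpbpa, 1867 bases away, and Tpbpb, both trophoblast genes, and neither had a count in any library. The 9 cathepsins of the placenta, such as Ctsj, Ctsm and Ctsq, likewise had no count in any library. A count of 0 allows up to 0.156 to 0.182 CPM per library (3 counts). Of the neighbours of the other members, Apmap beside Cst7 had a log2 fold change of 0.42 ± 0.12 (edgeR adjusted p = 0.106). Zfp345, on the other side of Cst7, had -0.32 ± 0.27, and Rrp1 and Pdxk, on either side of Cstb, had -0.08 ± 0.13 and 0.19 ± 0.18 (edgeR adjusted p = 0.525, 0.766 and 0.579).

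Cathepsins of other protease classes are not targets of these inhibitors, and they too had positive values. Of the 4 genes 3 were tested and 0 passed in edgeR (2.18% of all genes), and by unadjusted p 3 were under 0.05 (22.0% of all genes). DESeq2 called 3 of them (10.0% of all genes) and limma-voom 0 (2.01%). Ctsd, the aspartic protease of lysosomes, stood at 125 ± 22.6 CPM in WT and 202 ± 22.3 CPM in S34F, with a log2 fold change of 0.69 ± 0.15 (SD and SE, n = 3 per group, edgeR adjusted p = 0.0564). Ctsa and Ctsg had log2 fold changes of 0.52 ± 0.13 and 0.58 ± 0.17 (edgeR adjusted p = 0.0695 and 0.106). In all 3 genes every S34F library was above every WT library, as in 14.0% of all genes tested. Among granule serine proteases and granzymes 5 of 13 genes were tested, and 0 passed in edgeR (2.18% of all genes). By unadjusted p 1 was under 0.05 (22.0%), DESeq2 called 1 (10.0%) and limma-voom 0 (2.01%). That gene is again Ctsg, which belongs to both lists and to the neutrophil markers. Prtn3, proteinase 3, had a log2 fold change of -0.40 ± 0.22 and Prss57 of -0.28 ± 0.22 (edgeR adjusted p = 0.325 and 0.488).

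Calpains are cytosolic cysteine proteases with an inhibitor of their own, calpastatin (Cast). Of 8 calpain genes 6 were tested and 0 passed in edgeR (2.18% of all genes). By unadjusted p 2 were under 0.05 (22.0%), and DESeq2 (10.0%) and limma-voom (2.01%) called 0. The median log2 fold change of the calpains was -0.21. Capn7 and Capn10 had -0.36 ± 0.13 and -0.50 ± 0.17 (edgeR adjusted p = 0.1503 and 0.140), with all S34F libraries below all WT libraries. Capn1 and the small subunit gene Capns1 had -0.06 ± 0.12 and 0.19 ± 0.11 (edgeR adjusted p = 0.810 and 0.361).

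A list of 12 endolysosomal genes held the sorting machinery of cathepsins, lysosomal membrane proteins, Psap and the transcription factors of lysosomal genes Tfeb, Tfe3 and Mitf. Of these 0 rose, 1 fell and 11 did not pass in edgeR, where 1.58% of all genes tested rose and 0.595% fell. By unadjusted p 4 were under 0.05 (22.0% of all genes). DESeq2 called 3 (10.0% of all genes) and limma-voom 1 (2.01%). The median log2 fold change was 0.23. In 6 of the 12 genes all S34F libraries were above all WT libraries and in 1 below, against 14.0% and 13.1% of all genes tested. Gnptab, a subunit of the enzyme that makes the mannose 6-phosphate tag of lysosomal enzymes, stood at 234, 245 and 246 CPM in WT replicates 1 to 3 and at 162, 159 and 134 CPM in S34F replicates 1 to 3. The groups were far apart, and the fall was 1.59-fold (log2 fold change -0.67 ± 0.11, SE, edgeR adjusted p = 0.0286). The adjusted p of Gnptab was 0.0840 and 0.0931 without S34F replicates 1 and 3, 0.141 and 0.146 without WT replicates 2 and 3, and 0.135 with both of these summed. Gnptg, another subunit of the same enzyme, went the other way, with 0.57 ± 0.18 (edgeR adjusted p = 0.118) and all S34F libraries above all WT libraries. The membrane proteins Lamp1 and Laptm5 had log2 fold changes of 0.21 ± 0.11 and -0.25 ± 0.13, and the sphingolipid activator precursor gene Psap had 0.33 ± 0.12 (edgeR adjusted p = 0.288, 0.300 and 0.1596). Lamp2 had 0.38 ± 0.11 (edgeR adjusted p = 0.109).

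**Figure D3:**
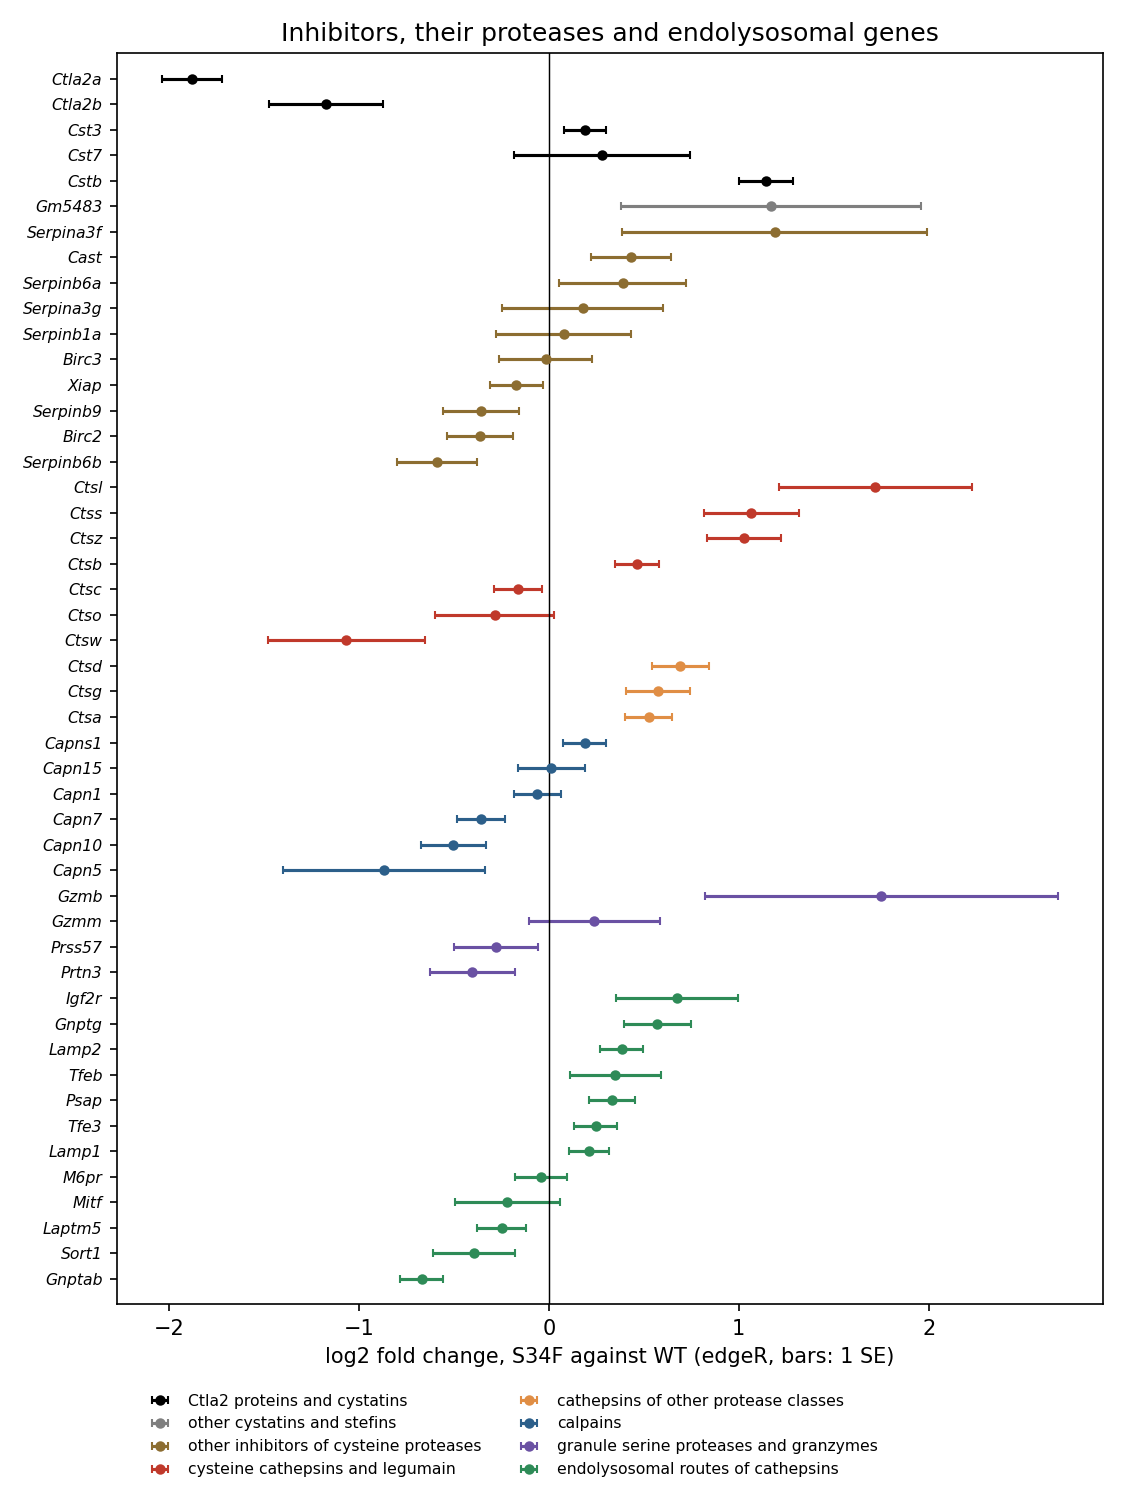
Fitted log2 fold changes of S34F against WT with 1 SE for the 5 inhibitor genes and all tested genes of the lists of inhibitors, proteases and endolysosomal genes, coloured by list, with Ctsg shown among the cathepsins only. Ctla2a lies farthest to the left, at -1.88, and Cstb, Ctsz, Ctsb and Ctsd lie to the right of 0.

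Other cystatins and stefins were nearly silent. Of 29 listed genes 21 were in the table, 11 of these had no count in any library and 1 could be tested, so they add little to the members: their summed level was 0.973 to 6.26 CPM in WT and 2.45 to 10.3 CPM in S34F. The testable gene was Gm5483, a stefin A-like gene, at 3.41, 0.471 and 0.703 CPM in WT replicates 1 to 3 and 6.83, 1.92 and 1.49 CPM in S34F replicates 1 to 3 (log2 fold change 1.17 ± 0.79, edgeR adjusted p = 0.418; 0 called by DESeq2 and by limma-voom, though the fit with a replicate block called it). Replicate 1 was the highest library in both groups. Stefin A1 (Stfa1) had the same feature, with 25, 2 and 1 counts in WT replicates 1 to 3 and 30, 9 and 9 in S34F replicates 1 to 3. Cst6, cystatin E/M, had 1, 2 and 0 counts in WT and 8, 7 and 4 in S34F, too few to be tested. Stfa1 and Cst6 were chosen for mention after their values were seen.

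Among inhibitors of other families, some serpins varied widely between the S34F libraries. Of 17 listed genes 6 had no count in any library, 10 were tested and 0 passed in edgeR (1 at an unadjusted p under 0.05, 0 by DESeq2 and by limma-voom), with a median log2 fold change of 0.03. Over all genes tested the shares were 2.18% in edgeR, 22.0% by unadjusted p, 10.0% by DESeq2 and 2.01% by limma-voom. Cast, calpastatin, had a log2 fold change of 0.43 ± 0.21 (edgeR adjusted p = 0.273). Serpinb1a, an inhibitor of neutrophil serine proteases, stood at 466, 503 and 514 CPM in WT replicates 1 to 3 and at 461, 249 and 855 CPM in S34F replicates 1 to 3. The S34F libraries thus held both the lowest and the highest value. Serpina3g, which inhibits cathepsin B in the cytosol, stood at 308, 285 and 276 CPM in WT replicates 1 to 3 and at 265, 582 and 136 CPM in S34F replicates 1 to 3. This is the pattern of Cst7: S34F replicate 2 highest and S34F replicate 3 lowest of the 6 libraries. Serpina3f, its close relative, had 17.8, 10.4 and 10.5 CPM in WT and 13.8, 67.5 and 6.81 CPM in S34F. Reads of Serpina3f and Serpina3g may be divided between the genes.

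**Figure D4:**
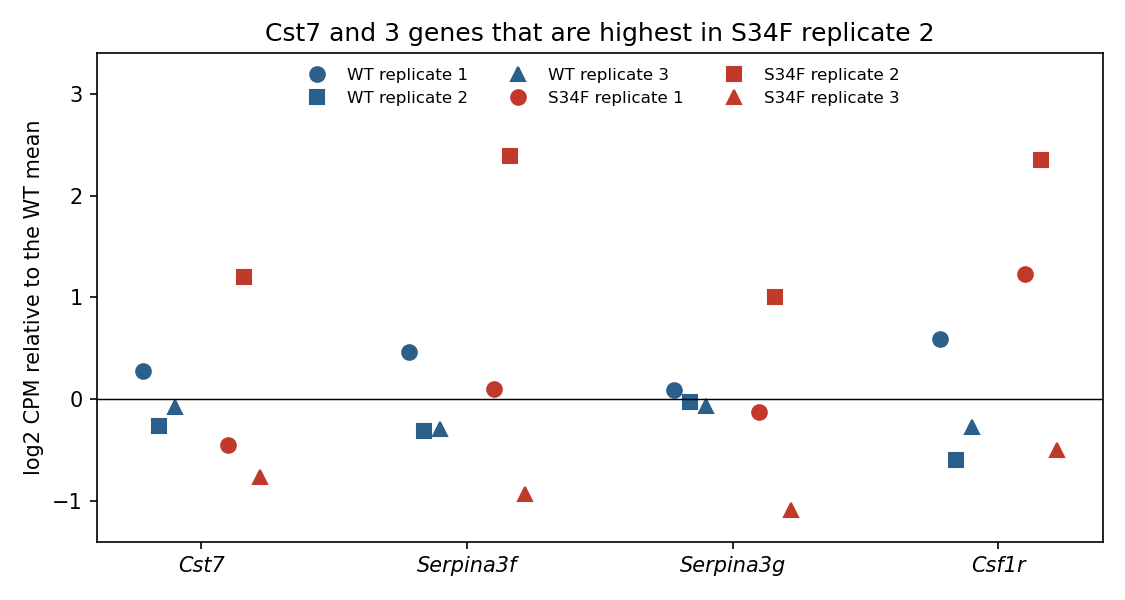
Levels as log2 CPM relative to the WT mean of Cst7, Serpina3f, Serpina3g and the macrophage receptor gene Csf1r in each library, chosen for the plot after their values were seen. S34F replicate 2 is the highest library for all 4 genes, and S34F replicate 3 is below all WT libraries for Cst7, Serpina3f and Serpina3g.

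Cystatins and cathepsins are also abundant in macrophages, so markers of other cell types were set beside them. Of 12 macrophage and monocyte markers 4 were tested and 0 passed in edgeR (2.18% of all genes). By unadjusted p 3 were under 0.05 (22.0%), and DESeq2 (10.0%) and limma-voom (2.01%) each called 1. The log2 fold change was positive in all 4, as in 50.1% of all genes tested, with a median of 1.46, against 0.00052 over all genes tested. The summed level of the 12 markers was 236 to 244 CPM in WT and 263 to 361 CPM in S34F, and C1qa, C1qb and Ly6c2 were at 0 in every library. Csf1r stood at 10.3, 4.54 and 5.68 CPM in WT replicates 1 to 3 and at 16.0, 34.9 and 4.84 CPM in S34F replicates 1 to 3, again highest in S34F replicate 2. Cd68, a lysosomal membrane protein of macrophages, stood at 19.9, 7.54 and 7.46 CPM in WT and 32.4, 32.2 and 32.0 CPM in S34F (log2 fold change 1.47 ± 0.35, edgeR adjusted p = 0.0695), and it was the gene called by DESeq2 and limma-voom. Adgre1, a surface receptor of macrophages, had a log2 fold change of 0.18 (edgeR adjusted p = 0.441). That of Cd14 was 2.08 ± 0.83 (edgeR adjusted p = 0.193), and its groups overlapped. The part of macrophage genes in the levels of Cstb, Cst7 and Ctsz was not tested. In bulk libraries, fewer cells of a type and less RNA per cell cannot be told apart.

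Ctla2 genes were found in T lymphocytes and are also made by mast cells. Of 12 markers of T and NK cells 2 were tested and 0 passed in edgeR (1 at an unadjusted p under 0.05). DESeq2 and limma-voom called 0, but no DESeq2 adjusted p is available for Cd28. The summed level of the 12 markers was 3.10 to 6.001 CPM in WT and 2.57 to 6.55 CPM in S34F. Cd3e, Cd3g, Cd8b1, Cd2, Ncr1, Klrb1c and Prf1 were at 0 in all libraries. The tested genes were Cd28, a T cell costimulator, with a log2 fold change of 2.16 ± 0.50, and Nkg7, a granule protein, with -0.47 ± 0.43 (edgeR adjusted p = 0.0678 and 0.563). Of 12 markers of mast cells and basophils 1 was tested and 0 passed in edgeR (0 at an unadjusted p under 0.05, by DESeq2 and by limma-voom). Their sum was 1.95 to 6.30 CPM in WT and 4.48 to 8.41 CPM in S34F, and Fcer1a, Tpsb2, Mcpt4, Mrgprb2 and Prss34 were at 0. For both lists, the shares over all genes tested were 2.18% in edgeR, 22.0% by unadjusted p, 10.0% by DESeq2 and 2.01% by limma-voom. The summed levels of both lists overlapped between the groups. Whether such cells had a part in the levels of the Ctla2 genes was not tested.

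Among 10 dendritic cell markers 1 was tested and rose: Cd74, the invariant chain that cathepsin S degrades, from 34.5 ± 17.3 to 138 ± 30.8 CPM (4-fold, SD, n = 3 per group, edgeR adjusted p = 0.0257). That call was lost without S34F replicate 1, S34F replicate 3, WT replicate 2 or WT replicate 3 (adjusted p = 0.0997, 0.0728, 0.130 and 0.100) and with WT replicates 2 and 3 summed (0.118). H2-Aa and H2-Ab1, the MHC class II chains, were at 0 in all libraries. In the lists of neutrophils (6 tested), stem cells and endothelium (2 tested) and fibroblasts and stroma (4 tested) 0 genes passed in edgeR. By unadjusted p 1, 2 and 1 genes were under 0.05, that of the neutrophil list being Ctsg. DESeq2 called 1, again Ctsg, 0 and 0, and limma-voom 0 in each list. The shares over all genes tested were 2.18% in edgeR, 22.0% by unadjusted p, 10.0% by DESeq2 and 2.01% by limma-voom.

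The genes whose pattern over the 6 libraries was most like that of Ctla2a were Rex2, mt-Co2, Eif2ak1, Cmpk1 and Pdlim5. Pearson's r of log2(CPM + 0.5) was 0.995, 0.994, 0.994, 0.992 and 0.992, the highest among the 9793 named genes whose mean level reached 2 CPM. The points fall into both groups, so these values mainly reflect the difference between groups, and they are a description only. Each of the 5 genes was lower in every S34F library, yet none as much as Ctla2a. Rex2, a zinc finger gene, stood at 31.3 ± 1.18 CPM in WT and 17.9 ± 1.74 CPM in S34F (SD, n = 3 per group), a log2 fold change of -0.80. Those of mt-Co2, a cytochrome c oxidase subunit, Eif2ak1, the heme-regulated kinase of translation factor eIF2, Cmpk1, a nucleotide kinase, and Pdlim5, a scaffold of the actin cytoskeleton, were -0.57, -0.48, -0.27 and -0.54.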

How the data were processed

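Messenger RNA of 6 libraries of 32D cells was sequenced. The authors deposited a table of raw counts, whole numbers by Ensembl gene ID and library. HISAT2, featureCounts and mm10 are named in the submitters' processing notes, and per the labels' protocols the library kit was directional. Their versions, the annotation release, the strand setting and the treatment of multimapping reads: not given in the sources used here. Columns were matched to samples by name and replicate number. Gene models came from GENCODE release M21 (54495 of 54532 gene IDs, 99.987% of counts).

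Counts were fitted for all genes in edgeR 4.0.16 (R 4.3.3): filterByExpr (13444 genes), TMM, robust quasi-likelihood F test, two-sided, genotype only (4 residual degrees of freedom), Benjamini-Hochberg adjustment at 0.05. Standard errors were derived from the F statistic and the log2 fold change. CPM values are TMM-normalised. The members and lists (180 entries, 8 of them without a match) were chosen with earlier results of these data known. Named genes were the members, U2af1, changed list genes and the 3 most abundant tested genes of each list, neighbours, and the 5 genes most like Ctla2a. Ctss, Ctsl, Ctsw, Ctso, Capn10, Gnptg, Lamp2, Csf1r, Cd68, Cd14, Serpina3f and marker genes at 0 were added after their values were seen. Sequences were aligned with Biopython 1.88, and figures drawn with matplotlib 3.10.9.

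Alternatives were other scaling factors and count filters, DESeq2 1.42.0, limma-voom (limma 3.58.1), the replicate number as a block, each library left out, WT replicates 2 and 3 summed, the pair Ctla2a and Ctla2b summed, and offsets that remove a loess trend with GC content (span 0.5, known for 13433 tested genes). The other lengths and the medians for Cst7 were chosen after seeing the data. The fit was tested on simulated data for this comparison (13444 genes, 200 of them changed). It called 95 genes, 7 of them wrongly. Recovery was 1.49% for changes of 1.5-fold, 50% for 2-fold ones and 89.7% for 4-fold ones.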

Additional observations from a re-analysis of the deposited data

How the results depend on the processing

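Most small changes go undetected with 3 libraries per group, so list genes that did not pass are not shown to be unchanged. The count of changed genes over the whole table, 293, was 763 with no count filter, 152 with the GC trend removed, 1216 by DESeq2, 20 with WT replicates 2 and 3 summed, and 19 to 1177 with 1 library left out (19 without WT replicate 2, 20 without S34F replicate 1, 22 without WT replicate 3, 50 without S34F replicate 3, 1177 without WT replicate 1). In the lists of inhibitors, proteases and endolysosomal genes together, 2 of 43 tested genes changed, against 2.18% of all genes tested. The count was 8 with no count filter, where further genes were tested, and 10 by DESeq2 (10.0% of all genes it tested). It was 0 with WT replicates 2 and 3 summed and 0 to 8 with 1 library left out. Among the markers 1 of 20 tested genes changed, against 3 with no count filter, 3 by DESeq2 (10.0% of all genes) and 2 by limma-voom (2.01%). The count was 0 with WT replicates 2 and 3 summed and 0 to 3 with 1 library left out. Removing 1 library or summing 2 leaves fewer samples, and the other causes were not tested.

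Same-numbered libraries of both groups deviated from their group means with correlations of 0.33, 0.16 and 0.07 across genes. S34F replicate 1 gave -0.26 and -0.24 with WT replicates 2 and 3. S34F replicate 2 gave 0.15 with WT replicate 3, and S34F replicate 3 gave 0.08 with WT replicate 2. WT replicates 2 and 3 were too alike (3.16%) for these values to tell which of them belongs to which S34F library. The labels name no pairing, so the main fit had no block, and whether the numbers pair the libraries is not settled. With the replicate block 1418 of the 13444 genes tested changed over the whole table. In the lists of inhibitors, proteases and endolysosomal genes 12 of 43 tested genes changed, and among the markers 5 of 20. Genes gained with the block included Gm5483 (edgeR adjusted p = 0.0395), Cast (0.0370), Ctsa (0.0244), Ctsb (0.0298), Ctsd (0.00766) and Ctsg (0.0202). The markers Cd28 (0.0346), Cd68 (0.0293), Mecom (0.0316) and Cd14 were gained as well. Of the cysteine cathepsin and legumain genes 3 were called with the block, Ctsz and Ctsb among them, so this list of gained genes is not complete. Cd74 was lost with the block (adjusted p = 0.0505) and with no count filter (adjusted p = 0.134).

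The members kept their direction under every alternative except Cst7, which ranged from -0.59 to 0.60 on the log2 scale with 1 library left out and was -0.38 by group medians. Cst3 moved to 0.042 with the GC trend removed, and Ctla2b to -1.85 when summed with Ctla2a, which supplies nearly all counts of that sum. The log2 fold change of Ctla2b lay between -1.24 and -1.04 under the other alternatives, that of Cst3 between 0.04 and 0.25 and that of Cstb between 1.08 and 1.22.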
